A study of Oryza sativa Indica Group with 16 samples.

Results

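The genes described here are cyclins and cyclin-dependent kinases (CDKs) of rice, the regulators that move a plant cell through its division cycle. Of 9 gene names looked up (CYCA1-1, CYCB1-1, CYCB2-1, CYCB2-2, CYCD2-1, CYCD4-1, CDKA-1, CDKB1-1 and CDKB2-1), 6 had a probe set that the platform annotation assigned to exactly 1 gene. CYCA1-1, CYCD2-1 and CDKB1-1 had none and were not analysed here. The name CYCB1-1 is carried by 2 gene IDs, LOC4327547, called CYCB1-1 below, and LOC4326914, which is also named CYCB1-3 and is called by its locus. That gave 7 genes, out of 17905 genes with a probe set of their own, and 9 probe sets. CYCB2-2 and CDKA-1 each had 2 probe sets, which are told apart by the suffix of the probe set (at, x_at or s_at). An x_at or s_at suffix marks probes that can match transcripts of related genes as well.

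A CDK is an enzyme that phosphorylates other proteins only while a cyclin is bound to it, and the kind of cyclin sets the step of the cycle at which the pair acts. D-type cyclins such as CYCD4-1 act at the passage from the first gap phase into DNA synthesis, in Arabidopsis in answer to cytokinin and sugar, while A- and B-type cyclins act later and B-type cyclins are needed for mitosis. CDKA-1 is the rice counterpart of the yeast Cdc2 kinase and is present throughout the cycle, whereas B-type CDKs such as CDKB2-1 exist only in plants and algae and are made around mitosis. In seedlings these genes are active mainly in meristems and young leaves, and dividing cells are a small part of the tissue.

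RNA of indica rice seedlings, 10 days after germination, was hybridised to Affymetrix arrays of the rice genome. The varieties CSR27 (salt-tolerant) and MI48 (salt-sensitive) were crossed to make recombinant inbred lines, from which tolerant lines were pooled as 1 bulk and sensitive lines as the other. Each of these 4 genotypes was sampled in control conditions and after 24 h in 150 mM NaCl, with 2 arrays for each of the 8 groups and 16 arrays in all. The replicates are called biological in the series' text, but how plants were assigned to them is not stated, and p-values therefore measure only the spread between arrays. The labels give no number of lines per bulk and no organ, and each bulk is a pool, so differences between lines within it are not seen. The comparisons ask how the transcripts of these genes differ with salt and between tolerant and sensitive plants.

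The 8 bulk arrays carry most of the results. Their median signals lay between 14.8 and 26.1, and their pairwise rank correlations between 0.90 and 0.93. The parent arrays were dimmer, apart from the first salt array of MI48, with rank correlations from 0.64 to 0.77, and 2 of the 4 CSR27 arrays (control replicate 2 and salt replicate 1) held no rice signal. Values below are scaled signals: each array's signals were multiplied so that all bulk arrays had the same median, 17.7. Differences are on the scale of log2(scaled signal + 3.86), which understates folds of dim probe sets. Leaf markers, a list of Rubisco small subunit and other photosynthesis genes, reached summed scaled signals of 38059 to 69227 per bulk array, while 11 probe sets of shoot and root meristem markers summed to 1082 to 1430. In samples of mixed cells, fewer cells of a type and less RNA per cell cannot be told apart.

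The signals of the mitotic cyclins CYCB1-1, CYCB2-1 and CYCB2-2 and of CDKB2-1 were lower after salt in both bulks, by 1.53-fold to 1.88-fold when the bulks were averaged. That of LOC4326914, a dim B1-type cyclin, was not, with an averaged log2 difference of 0.19. The G1 cyclin CYCD4-1 and the constitutive kinase CDKA-1 differed by less. The genes were selected on the averaged salt response of the bulks, as earlier results of these data showed it, so the differences are given as values with standard errors (SE) and without a test.

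**Figure D1:**
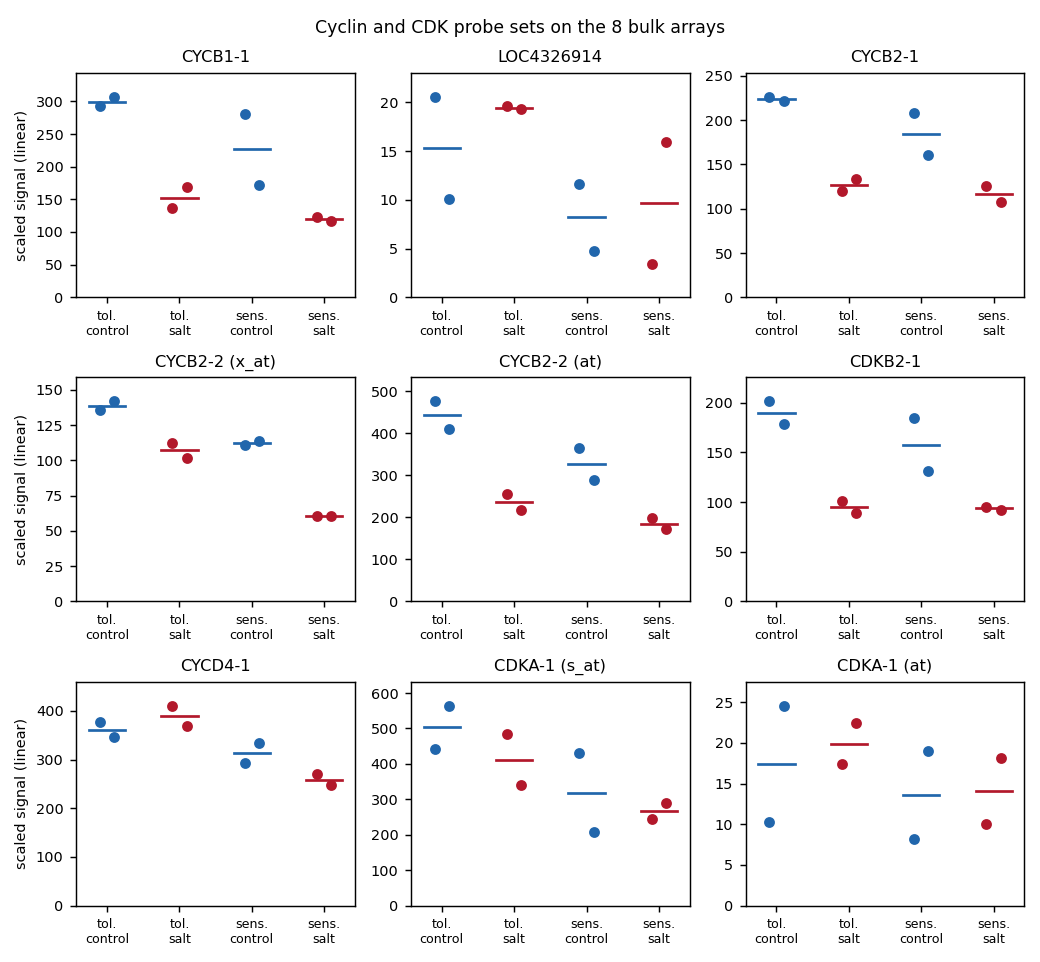
Scaled signal (linear axis from 0) of the 9 cyclin and CDK probe sets on the 8 bulk arrays; each point is an array, each line the mean of the 2 arrays of a group, blue for control and red for salt. For CYCB1-1, CYCB2-1, CYCB2-2 (at) and CDKB2-1 all 4 salt arrays lie below all 4 control arrays, while the groups of CDKA-1 and LOC4326914 overlap.

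CYCB1-1, a B-type cyclin of mitosis, had scaled signals of 292.3 and 306.4 on the tolerant control arrays, 136.3 and 168.2 on the tolerant salt arrays, 281.5 and 171.6 on the sensitive control arrays, and 122.5 and 116.9 on the sensitive salt arrays. Every salt array was below every control array, with the closest values those of tolerant salt replicate 2 and sensitive control replicate 2. The averaged log2 difference was -0.91 (SE 0.16), or 1.88-fold lower in salt. It was -0.97 in the tolerant and -0.86 in the sensitive bulk.

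CYCB2-1, a B2-type mitotic cyclin, had scaled signals of 226.0 and 222.1 in tolerant control, 120.5 and 133.5 in tolerant salt, 208.7 and 161.1 in sensitive control, and 126.0 and 108.0 in sensitive salt. The groups of control and salt arrays did not overlap. The averaged log2 difference was -0.72 (SE 0.13), 1.65-fold lower, with -0.80 in the tolerant and -0.64 in the sensitive bulk.

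CYCB2-2 is the second B2-type cyclin, known in rice as a partner of CDKB2-1, and was read by 2 probe sets. The at probe set gave scaled signals of 475.6 and 409.1 in tolerant control, 254.8 and 217.7 in tolerant salt, 364.2 and 288.9 in sensitive control, and 198.0 and 172.1 in sensitive salt. The x_at probe set gave 136.0 and 141.8, 112.2 and 102.0, 110.9 and 113.5, and 60.3 and 60.4 in the same order of groups. In the at probe set every salt array was below every control array. In the x_at probe set this held within each bulk only, since the first tolerant salt array lay between the sensitive control arrays.

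The probe sets of CYCB2-2 differed in how the bulks compared. The at probe set was lower in salt by about the same amount in both, with log2 differences of -0.89 in the tolerant and -0.80 in the sensitive bulk and an average of -0.85 (SE 0.12), 1.80-fold. The x_at probe set had -0.36 in the tolerant and -0.85 in the sensitive bulk and an average of -0.61 (SE 0.13), 1.53-fold. Whether the x_at probes also read another cyclin was not tested.

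CDKB2-1, the mitotic B-type kinase, had scaled signals of 201.4 and 178.3 in tolerant control, 101.4 and 89.3 in tolerant salt, 184.2 and 131.5 in sensitive control, and 95.6 and 92.3 in sensitive salt. All 4 salt arrays lay within 89.3 to 101.4, below every control array. The averaged log2 difference was -0.84 (SE 0.14), 1.79-fold lower, with -0.97 in the tolerant and -0.71 in the sensitive bulk.

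For CYCD4-1, the D-type cyclin, control and salt were not separated over the 8 arrays. Its scaled signals were 377.0 and 345.6 in tolerant control, 410.8 and 368.7 in tolerant salt, 292.1 and 333.1 in sensitive control, and 269.9 and 247.8 in sensitive salt. Tolerant control and salt arrays overlapped, and both sensitive salt arrays were below both sensitive control arrays. The averaged log2 difference was -0.080 (SE 0.11) and turned to 0.14 under quantile normalization; it was 0.11 in the tolerant and -0.27 in the sensitive bulk.

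CDKA-1, the kinase present at all phases, was read by a bright s_at and a dim at probe set. The s_at probe set had scaled signals of 441.9 and 564.5 in tolerant control, 483.1 and 341.4 in tolerant salt, 429.9 and 207.6 in sensitive control, and 243.2 and 289.6 in sensitive salt. Control and salt overlapped in each bulk, and the sensitive control arrays were the farthest apart. The averaged log2 difference was -0.23 (SE 0.21), and -0.012 under quantile normalization.

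The remaining probe sets were near or below the arrays' median. The at probe set of CDKA-1 ranged from 8.1 to 24.6 and had an averaged log2 difference of 0.16 (SE 0.38). LOC4326914, the B1-type cyclin gene also named CYCB1-3, ranged from 3.4 to 20.5, with an averaged log2 difference of 0.19 (SE 0.46). Neither probe set separated control from salt.

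**Figure D2:**
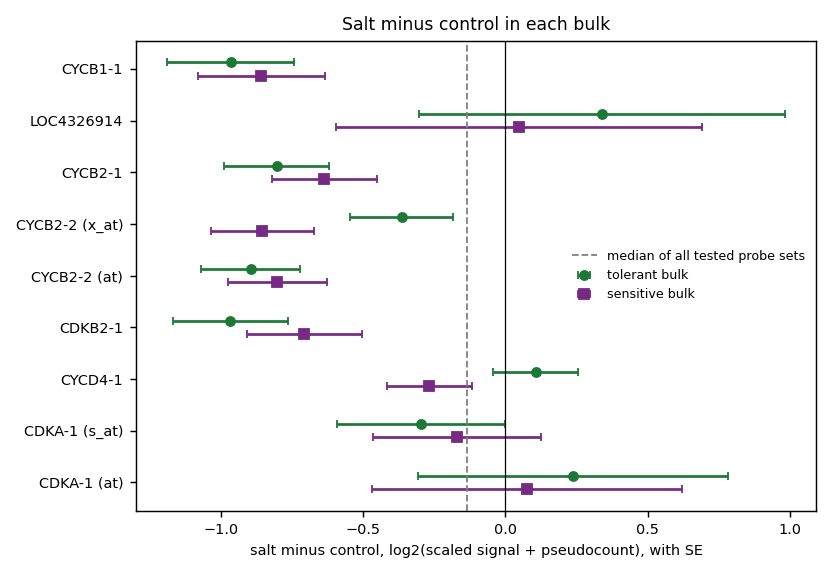
Log2 difference of salt minus control (horizontal axis) for each of the 9 probe sets, green circles for the tolerant and purple squares for the sensitive bulk, bars 1 SE either way; the dashed line is the median of all tested probe sets in the averaged response. CYCB1-1, CYCB2-1, CYCB2-2 (at) and CDKB2-1 lie between -0.97 and -0.64 in both bulks, and CYCD4-1 lies at 0.11 and -0.27 (its average turns from -0.080 to 0.14 under quantile normalization).

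In limma's moderated test with Benjamini-Hochberg adjustment over the 32996 probe sets tested, 5 of the 9 probe sets had an adjusted p under 0.05 in the lower direction in the averaged response (CYCB1-1, CYCB2-1, both of CYCB2-2, and CDKB2-1), where 12.2% of all tested probe sets did so. The count was 4 in the tolerant bulk, with 4.42% of all probe sets called lower, and 3 in the sensitive bulk, with 4.77%. Nothing is read from these counts, because the genes were chosen with that response known. All 4 salt arrays were below all 4 control arrays for 4 of the 9 probe sets and for 12.3% of all. The median log2 difference was -0.61 over the 9 and -0.14 over all tested probe sets; quantile normalization moved the latter to -0.004. Fits that also held the parent arrays called 0 of the 9 in each of the 3 salt responses. These fits called few probe sets of any kind. In the averaged, tolerant and sensitive responses the counts were 25, 3 and 2 of 42300 with 14 arrays, and 1, 0 and 0 of 50537 with 16.

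The sensitive control arrays stood apart from each other, and for several of the genes the size of the sensitive response moved with them. Without sensitive control replicate 1 the log2 difference of CYCB1-1 in the sensitive bulk was -0.51, and without replicate 2 it was -1.21. The corresponding values for CDKB2-1 were -0.47 and -0.94, and for the s_at probe set of CDKA-1 they were 0.35 and -0.69. LOC4326914 likewise turned, with 0.47 and -0.37, and CYCB2-2 (x_at) hardly moved, with -0.87 and -0.84. The direction was the same with either array left out for CYCB1-1, CYCB2-1, both probe sets of CYCB2-2, CDKB2-1 and CYCD4-1, and turned for LOC4326914 and both probe sets of CDKA-1.

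Tolerant and sensitive plants were compared next, first without salt. This contrast is independent of the averaged salt response and was tested. All 9 probe sets had higher means in the tolerant bulk, with a median log2 difference of 0.30 against 0.09 over all tested probe sets, but 0 of 9 passed the test (limma, adjusted p under 0.05), where 1.45% of all did. LOC4326914 was kept for testing only because tolerant arrays reached the filter level of 17.7, which no sensitive array did. Its higher tolerant means, here and after salt, thus follow in part from the filter, and nothing is read from them. In the lists of other genes described below, the medians of this contrast ran from 0.054 (other CDKs with CKS1) to 2.03 (endosperm markers), with 0.37 for reference genes. At an unadjusted p under 0.05 there were 2 of the 9. These were the s_at probe set of CDKA-1, with a log2 difference of 0.73 (SE 0.30, adjusted p 0.29, 95% interval 0.08 to 1.39), and the at probe set of CYCB2-2, with 0.44 (SE 0.17, adjusted p 0.29, interval 0.05 to 0.82).

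CYCB1-1 differed by 0.44 (SE 0.22, adjusted p 0.42 by limma), with an interval from -0.06 to 0.93, so the arrays do not show whether its control level differs between the bulks. Without sensitive control replicate 1, the brighter array of that group for this gene, 3 probe sets passed: CYCB1-1 at 0.79, CYCB2-2 (at) at 0.60 and CDKA-1 (s_at) at 1.25. In that fit 3132 of all tested probe sets passed (9.49%), against 480 with all 8 arrays. Both tolerant control arrays lay above both sensitive ones for 6 of the 9 probe sets and for 26.9% of all.

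After salt, all 9 means were again higher in the tolerant bulk (median log2 difference 0.43 against 0.10 over all), except that CDKB2-1 turned from 0.018 to -0.080 under quantile normalization. In limma's test 0 of 9 passed, where 1.28% of all probe sets did, and 2 had an unadjusted p under 0.05. The larger was CYCB2-2 (x_at), at 112.2 and 102.0 in the tolerant against 60.3 and 60.4 in the sensitive salt arrays, a log2 difference of 0.79 (SE 0.18, adjusted p 0.069, interval 0.39 to 1.19). CYCD4-1 followed with 0.58 (SE 0.15, adjusted p 0.099, interval 0.25 to 0.91). Both passed when the 4 salt arrays were fitted alone (adjusted p 0.043 and 0.027) or when either sensitive control array was left out. Many more of all probe sets passed in those fits as well, 1732 with the 4 arrays alone and 2396 and 2412 without the first or second sensitive control array, against 423 with all 8.

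For 6 of the 9 probe sets both tolerant salt arrays lay above both sensitive ones, as did 33.8% of all. LOC4326914 is among these 6, and it passed the filter only through tolerant arrays, so nothing is read from its place there. CDKB2-1 was the closest to equal, with a difference of 0.018 (SE 0.20) and an interval from -0.43 to 0.46. CYCB2-1 differed by 0.12 (SE 0.18, interval -0.29 to 0.52). The intervals of these genes leave room for differences of the size seen in CYCB2-2 (at), 0.35 (SE 0.17, interval -0.04 to 0.73).

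The difference between the salt responses of the bulks, tolerant minus sensitive, was tested directly. None of the 9 probe sets passed (limma; 0 also at an unadjusted p under 0.05), where 0.173% of all did. The largest was CYCB2-2 (x_at), with 0.49 (SE 0.26, adjusted p 0.77, interval -0.07 to 1.05). CYCD4-1 had 0.37 (SE 0.21, adjusted p 0.80, interval -0.09 to 0.84), and CDKB2-1 had -0.26 (SE 0.29, interval -0.89 to 0.37). Differences between the responses of the bulks were not detectable for these genes with 2 arrays per group, and the intervals show how large they could still be.

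Endosperm markers, a list of seed storage and starch genes, moved between the same groups. Their summed scaled signals over 22 probe sets were 10781 to 12477 in tolerant control, 1605 to 1682 in sensitive control, 4681 to 4796 in tolerant salt and 4756 to 4860 in sensitive salt. The alpha-amylase gene AMY1.1, with 1 probe set, held a large part of these sums. It was at 4491 and 5388, 916 and 718, 3557 and 3691, and 2802 and 2865 in the same order. The sums are thus no measure of the storage protein genes alone. In control conditions 9 of 20 tested endosperm probe sets were higher in the tolerant bulk (limma, adjusted p under 0.05). Of all tested probe sets 1.45% were called in that comparison, in either direction. The 11 meristem probe sets summed to 1312 to 1351, 1247 to 1430, 1262 to 1273 and 1082 to 1234 in the same order. Of 10 meristem probe sets tested, 0 changed in the averaged salt response, where 14.9% of all were called. Below the array median on both arrays of a group were 2 to 8 of the 22 endosperm, 1 or 2 of the 11 meristem and 1 or 2 of the 12 leaf probe sets. The part of seed tissue or of meristem content in the cyclin and CDK values was not tested.

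A ratio within an array is free of the array's scaling, so each gene's deposited signal was also divided by that of CYCD4-1 on the same array. CYCD4-1 was taken as the denominator after its values had been seen, and a ratio of different probe sets is no ratio of transcript amounts. On the bulk arrays the ratios of CYCB1-1, CYCB2-1, both CYCB2-2 probe sets and CDKB2-1 were lower on every salt array than on every control array, 5 of 8 probe sets against 4.88% of all. Nothing is read from this count, because the genes were chosen with the salt response of these arrays known. For CDKB2-1 the ratio was 0.395 to 0.631 in control and 0.242 to 0.373 in salt. For CYCB2-2 (at) it was 0.867 to 1.26 in control and 0.591 to 0.734 in salt. For CYCB2-2 (x_at) it was 0.341 to 0.410 in control and 0.224 to 0.277 in salt.

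**Figure D3:**
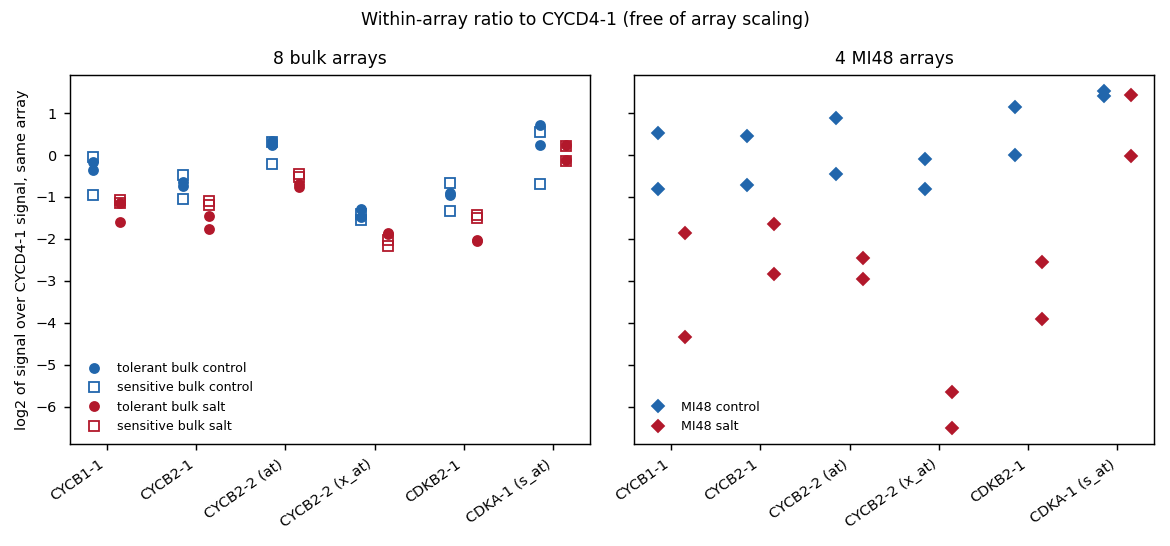
Log2 of each probe set's deposited signal over that of CYCD4-1 on the same array, for the 8 bulk arrays (left) and the 4 MI48 arrays (right); each point is an array, blue control and red salt, and the dim LOC4326914 and CDKA-1 (at) are left out. The ratios of CYCB1-1, CYCB2-1, CYCB2-2 and CDKB2-1 are lower on every salt array than on every control array on both sides, and those of CDKA-1 (s_at) overlap in the bulks.

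MI48, the salt-sensitive parent, gave arrays that had no part in choosing the genes, and its salt response was tested on its own 4 arrays. Array medians were 1.9 and 1.5 in control and 86.3 and 4.6 in salt before scaling, so the arrays differ far more in brightness than those of the bulks. Scaled to their own common median of 2.96, CDKB2-1 was at 15.6 and 19.1 in control and 16.3 and 0.771 in salt. CYCB1-1 was at 22.6 and 4.93 in control and 26.1 and 0.578 in salt. For both genes the first salt array was among the control arrays or above them, and the second was far below.

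CYCB2-2 (x_at) was the 1 probe set with both salt arrays below both control arrays, at 8.87 and 8.08 in control and 1.88 and 0.129 in salt (9.35% of all tested probe sets). Its log2 difference was -2.76 (SE 0.91, interval -4.96 to -0.56), with an adjusted p of 0.16 by limma. Only the 2 control arrays reached the level of 2.96 that the filter asked of at least 2 arrays. The probe set was thus tested only because control was high, so nothing is read from its separation or its interval. CYCD4-1 was at 15.6 and 8.67 in control and 94.9 and 11.6 in salt, a difference of 1.48 (SE 1.00, adjusted p 0.41, interval -0.93 to 3.90). The s_at probe set of CDKA-1 was at 40.9 and 24.8 in control and 93.6 and 31.6 in salt, with 0.76 (SE 0.68), which turned to -0.45 under quantile normalization.

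In MI48 8 of the 9 probe sets could be tested, LOC4326914 being too dim, and 0 passed (limma, adjusted p under 0.05), as did 0% of all 31067 probe sets. At an unadjusted p under 0.05 there was 1, CYCB2-2 (x_at). The 5 tested mitotic probe sets had negative differences, from -2.76 for CYCB2-2 (x_at), with the limit given above, to -0.56, while the median over all tested probe sets was 0.76. Under quantile normalization that median was 0.066, and the 5 differences ran from -3.16 to -1.05. The intervals of CYCB1-1 (-4.68 to 2.65) and CDKB2-1 (-4.74 to 0.96) include both a loss larger than in the bulks and no difference. Leaving out the second salt array turned CYCB1-1 to 1.24 and CYCB2-1 to 0.28. CDKA-1 (at) was the 1 probe set with both salt arrays above both control arrays, where 45.5% of all were so. It was at 0.156 and 1.77 in control and 4.92 and 4.95 in salt. Only the salt arrays reached the filter level of 2.96, so this order was fixed by its being kept, and nothing is read from it.

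Relative to CYCD4-1 on the same array, the same 5 probe sets as in the bulks were lower on both MI48 salt arrays than on both control arrays, 5 of 8 against 19.5% of all. The 8 include LOC4326914, which did not pass the MI48 filter, while the 19.5% covers only probe sets that did. CYCB2-2 (x_at) passed it only through control arrays. Nothing is read from this count, because CYCD4-1 was chosen after its values had been seen. The ratio of CDKB2-1 was 1.00 to 2.20 in control and 0.0663 to 0.172 in salt. That of CYCB1-1 was 0.568 to 1.45 in control and 0.0497 to 0.275 in salt. CYCD4-1 itself was far brighter on the first MI48 salt array, which lowers every ratio there.

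**Figure D4:**
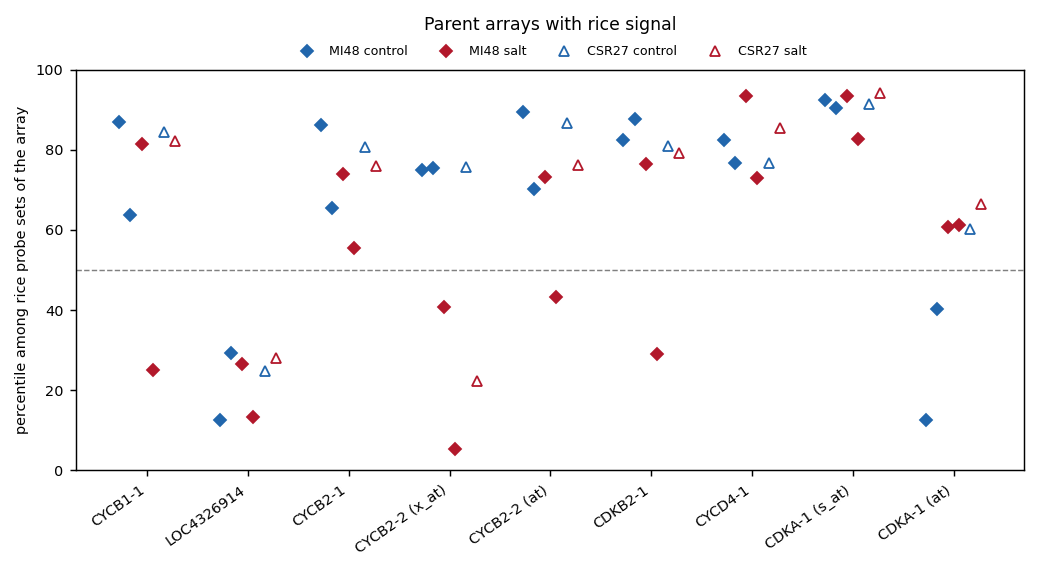
Percentile of each of the 9 probe sets among all rice probe sets of its array (vertical axis, 0 to 100, dashed line at 50) on the 6 parent arrays with rice signal; diamonds are MI48, open triangles CSR27, blue control and red salt. CYCB2-2 (x_at) lies at 76 in control and 22 in salt in CSR27 and lies at 41 and 5 on the MI48 salt arrays, while CDKA-1 (s_at) stays above the 80th percentile on all 6.

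CSR27, the tolerant parent, had 1 array with rice signal in each condition, so its values have no replicate check and no test. As percentiles among the rice probe sets of an array, CDKA-1 (s_at) was at 91.4 on the control array and 94.3 on the salt array, and CYCD4-1 at 76.8 and 85.4. CYCB1-1, CYCB2-1, CYCB2-2 (at) and CDKB2-1 were lower in rank in salt, CYCB1-1 at 84.5 and 82.2, CYCB2-1 at 80.7 and 76.0, CYCB2-2 (at) at 86.7 and 76.3 and CDKB2-1 at 80.8 and 79.3. Gaps between the 2 MI48 control arrays were wider for each of these, with 86.9 and 63.7 for CYCB1-1 and 82.5 and 87.8 for CDKB2-1, so no direction is read from these ranks. CYCB2-2 (x_at) was at 75.6 and 22.2, the widest gap of the 9, and LOC4326914 was at 24.8 and 28.1. The deposited signals of CYCB2-2 (x_at) were 5.7 in control and only 0.2 in salt, on a salt array with a median of 1.6.

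Other genes of the division cycle were taken from lists of gene names, made with earlier results of these data known. Of 22 tested probe sets of other cyclins, 4 fell in the averaged response of the bulks and 0 rose (limma, adjusted p under 0.05), where 12.2% of all tested probe sets were called lower, with a median log2 difference of -0.24 against -0.14 over all. Quantile normalization gave 1 higher and 2 lower, and leaving out an array gave 2 to 8 called. CYCA2-1, an A-type cyclin, fell by 0.84 on the log2 scale (SE 0.13, adjusted p 0.0016) with every control array at 187.1 or more and every salt array at 165.5 or less, and the D-type cyclin CYCD3-1 by 0.70 (SE 0.13, adjusted p 0.0063). CYCA1-4 fell by 0.55 and the P-type cyclin CYCP3-1 by 0.39, and neither of these passed under quantile normalization (adjusted p 0.080 and 0.28). CYCD3-1 was at 371.5 and 364.7 in tolerant control, 251.0 and 182.6 in tolerant salt, 246.7 and 216.4 in sensitive control and 165.1 and 133.9 in sensitive salt. Within each bulk both salt arrays of this D-type cyclin were below both control arrays, which was not so for CYCD4-1 in the tolerant bulk.

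Of 16 tested probe sets of other CDKs and of CKS1, a small protein bound to CDKs, 0 passed in the averaged response, where 14.9% of all were called. Their median was -0.24. Quantile normalization gave 1 higher and 0 lower. Some fits that left out an array also called probe sets of this list. Of 10 tested probe sets of CDK inhibitors and cycle regulators, 1 rose and 1 fell (3 and 0 under quantile normalization; 1 to 5 called when an array was left out). Of all 32996 tested probe sets 867 were called higher and 4040 lower. The riser among the 10 was the at probe set of EL2, a CDK inhibitor of the SIAMESE-related family first found as an elicitor-induced gene of rice. EL2 also has an a_at probe set, which was not among those called, and the values here are those of the at probe set. EL2 was at 155.7 and 138.1 in tolerant control, 269.7 and 302.4 in tolerant salt, 143.8 and 106.3 in sensitive control, and 224.5 and 194.1 in sensitive salt. All 4 salt arrays were above all 4 control arrays, and the averaged log2 difference was 0.84 (SE 0.13, adjusted p 0.0022). KRP1, a Kip-related CDK inhibitor, fell by 0.53 (SE 0.12, adjusted p 0.013), and did not pass under quantile normalization (adjusted p 0.18).

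A list meant for the anaphase-promoting complex and the spindle matched kinesins, the centromeric histone CenH3 and PAIR genes of meiosis. Of its 28 tested probe sets 5 fell and 0 rose, beside 12.2% of all called lower, and the median was -0.22. Quantile normalization gave 3 in each direction, and leaving out an array gave 2 to 10 called. KIN14N fell by 0.81 (SE 0.16, adjusted p 0.0063), CenH3, which marks centromeres, by 0.72 (SE 0.16, adjusted p 0.014) and KIN12C by 0.68 (SE 0.13, adjusted p 0.0058). KIN14L fell by 0.51, with an adjusted p of 0.089 under quantile normalization. Between the bulks in control conditions 1 of these probe sets, the kinesin KIN7D, was higher in the tolerant bulk (0.64, SE 0.13, adjusted p 0.040 by limma). In that comparison 1.45% of all tested probe sets were called.

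Of 26 tested DNA replication probe sets 9 fell and 0 rose (6 and 0 under quantile normalization), beside 12.2% of all called lower, with a median of -0.49. Leaving out an array gave 5 to 13 called. Those that fell included OsRPA70b, a subunit of the protein that binds single-stranded DNA, by 0.89 (SE 0.14, adjusted p 0.0019), and MCM4 and MCM2 of the replicative helicase, by 0.88 and 0.86. OsPCNA, the sliding clamp of the DNA polymerase, fell by 0.70 (SE 0.11, adjusted p 0.0017). Of 5 histone probe sets, all H2B, 3 fell (2 under quantile normalization), beside the same 12.2%. H2B.10 had a log2 difference of -0.85 (SE 0.12, adjusted p 0.0012 by limma).

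Lists that do not belong to the cycle stood beside these, with the same 12.2% of all tested probe sets called lower in the averaged response. Of 38 tested probe sets of reference genes 9 fell and 0 rose (8 lower and 4 higher under quantile normalization, 9 to 16 called when an array was left out), with a median of -0.18, among them the actin ACT2 by 0.97 (SE 0.09) and the tubulin TUB2 by 0.91 (SE 0.10). These falls were as large as the differences of the mitotic genes. Of 10 leaf probe sets 2 fell (1 under quantile normalization), with a median of 0.01. Of 20 endosperm probe sets 5 fell and 1 rose (2 and 1 under quantile normalization), with a median of -0.56. The bulks differed here, with 8 endosperm probe sets lower and 0 higher in the tolerant bulk and 0 lower and 6 higher in the sensitive bulk. Of all tested probe sets 4.42% were called lower in the tolerant bulk, and 573 of 32996 were called higher in the sensitive bulk.

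**Figure D5:**
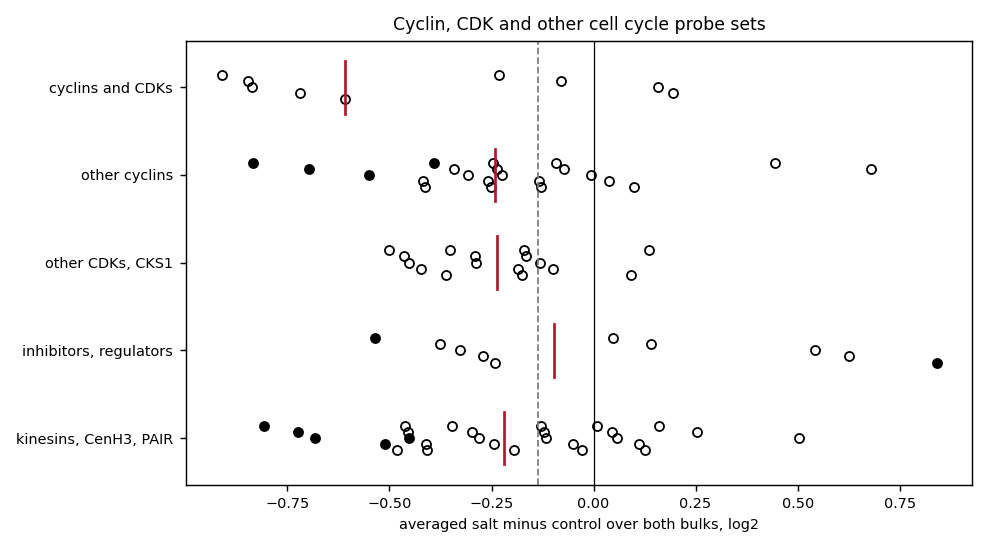
Averaged salt minus control log2 difference (horizontal axis) of the 9 cyclin and CDK probe sets and of the tested probe sets of 4 lists of cycle genes; each circle is a probe set, red bars are medians, the dashed line is the median of all tested probe sets, and filled circles passed an adjusted p of 0.05 (not marked for the top row, which was chosen with this response known). The at probe set of EL2 lies at 0.84 and CYCA2-1 at -0.84. Under quantile normalization CYCD4-1 turns from -0.080 to 0.14.

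The genes whose pattern was most like that of the mitotic group were found by ranking 2796 probe sets with a gene name. The measure was Pearson's correlation over the 8 bulk arrays with the mean standardised profile of the 6 B-type cyclin and CDKB probe sets, given without a p, since all arrays share the salt contrast and the scaling. The probe sets' own correlations with that profile ran from 0.89 to 0.97 for CYCB1-1, CYCB2-1, CYCB2-2 and CDKB2-1, and that of LOC4326914 was 0.34; these probe sets are part of the profile. For those outside it the correlations were 0.69 for CDKA-1 (s_at), -0.12 for CDKA-1 (at) and 0.51 for CYCD4-1. The 10 most alike were PAF1 (0.995), the auxin response repressor IAA31 (0.994), OsTLP11 (0.989), GINT1 (0.986), the formin FH3, the sugar transporter OsSWEET4, the beta-glucosidase BGLU12, BSL1, OsWNK4 and KOB1 (0.980). Their averaged log2 differences lay between -0.66 and -0.34.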

How the data were processed

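Values were probe set signals, an intensity on a linear scale, deposited by the authors, who used GCOS 1.2 (submitters' processing notes); its settings were not given in any source used. From the deposited table of 57381 probe sets, 123 controls were left out. Of the other 57258, 22436 were annotated with 1 gene, 95 with several and 34727 with none; all 17905 gene IDs matched a gene table (assembly ASM3414082v1), used for names only.

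Each array was scaled to the common median (17.7 for the bulks, 2.96 for MI48). A probe set was kept if at least 2 arrays reached the overall median. The 25th percentile was added before log2 (3.86 for the bulks, 0.591 for MI48). limma 3.58.1 in R 4.3.3 (lmFit, eBayes with intensity trend, two-sided, Benjamini-Hochberg, threshold 0.05) fitted 4 group means to the 8 bulk arrays (32996 probe sets) and, separately, MI48 (31067). Scripts were tested on simulated data. The number of arrays limits the precision, and the table holds no detection calls.

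The genes and lists were chosen with earlier results of these data known, so the salt response of the bulks is a description for the cyclins and CDKs. All their probe sets are named; from each list, up to 4 probe sets with the largest difference among those past the threshold; and the 10 most alike. From lists matched by name pattern, 9 names of unrelated genes were dropped. Replicate numbers did not pair the arrays: correlations of replicate differences between bulk groups ran from -0.0005 to 0.027 over 6 pairs. The alternatives tried were leaving out each array in turn, fitting 14 or 16 arrays or the compared arrays alone, the replicate block, quantile normalization, no filter on dim probe sets, and 0.25 of the pseudocount.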

Additional observations from a re-analysis of the deposited data

Results flagged for a closer look

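Endosperm genes were listed here as markers of seed tissue. Of their 20 tested probe sets 7 passed limma's test for the difference between the salt responses of the bulks, where 0.173% of all did. These 7 all had lower values for the tolerant bulk. For 4 of them the tolerant response minus the sensitive one, on the log2 scale, was -6.40 and -4.75 for the 2 probe sets of PROLM25, a prolamin storage protein, -5.25 for the seed protein gene RA14 and -4.92 for GBSS1, a starch synthase. None of the cyclin and CDK probe sets met this mark.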

How the results depend on the processing

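The counts of probe sets called depended on which arrays were fitted, and the cause was not tested. With 14 arrays, 25 probe sets were called in the averaged salt response, 3 in the tolerant, 2 in the sensitive, 1 between the bulks in control, 0 in salt, 0 for the difference of the responses and 11272 in MI48. The last count was 26.6% of the 42300 tested. It held 2 of the 9 cyclin and CDK probe sets (CYCB2-2 (x_at) at -2.76 and CDKA-1 (at) at 2.05), and nothing is read from that number. With 16 arrays the counts were 1, 0, 0, 0, 0, 0 and 202, and both fits called 0 cyclin and CDK probe sets in the bulks. With only the 4 arrays compared there were 4195 in the tolerant response, 381 in the sensitive (0 cyclin and CDK probe sets), 134 between the bulks in control and 1732 in salt (2 cyclin and CDK probe sets). Without the filter there were 1364 in the sensitive response, 298 and 208 between the bulks (control, then salt) and 36 for the difference of responses.

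Quantile normalization gave 918 between the bulks in salt, and moved the averaged response from 867 higher and 4040 lower to 1833 higher and 2115 lower; it turned CDKB2-1 between the bulks in salt to -0.080 and CDKA-1 (s_at) in MI48 to -0.45. With the replicate number as a block, 5329 probe sets were called in the averaged response against 4907, and the cyclin and CDK calls went from 3 to 4 in the sensitive response and kept their number in the other comparisons; the numbers do not pair the arrays.

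Leaving out each array in turn gave 2340 to 9287 in the averaged response (4 to 6 cyclin and CDK probe sets), 379 to 4448 in the tolerant (0 to 4), 360 to 7235 in the sensitive (0 to 6), 110 to 3132 between the bulks in control (0 to 3), 0 to 2412 in salt (0 to 2), 25 to 281 for the difference (0) and 0 in MI48. In the bulks the highest counts came without a sensitive control array, and a lone array was assumed to vary like the others. In the tested comparisons these values changed sign: CDKA-1 (at) in control, -0.23 to 0.78, CDKB2-1 between the bulks in salt, -0.071 to 0.11, and, for the difference of the responses, CYCB1-1 (-0.46 to 0.24), LOC4326914 (-0.43 to 1.02), CYCB2-1 (-0.35 to 0.016), CYCB2-2 (at) (-0.26 to 0.071), CDKA-1 (s_at) (-0.64 to 0.39) and CDKA-1 (at) (-0.34 to 0.66). In MI48 they were CYCB1-1 (-3.27 to 1.24), CYCB2-1 (-1.50 to 0.38), CYCD4-1 (-0.00091 to 2.97) and CDKA-1 (s_at) (-0.012 to 1.54). In the averaged salt response of the bulks CDKA-1 (at) (-0.094 to 0.41), CDKA-1 (s_at) (-0.49 to 0.026) and LOC4326914 (-0.17 to 0.56) changed sign, in the sensitive response the same 3 did, and in the tolerant response CDKA-1 (at) and LOC4326914 did. Probe sets near the array median, LOC4326914 and CDKA-1 (at), allow no statement on small differences.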
